A study of Mus musculus with 6 samples.

Results

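Ctla2a and Ctla2b, which encode inhibitors of cysteine proteases, were examined with cystatin C (Cst3) and 6 cathepsin genes (Ctsb, Ctsl, Ctss, Ctsk, Ctsh and Ctsd) in sorted cells of mouse bone marrow. These 9 genes, of 19938 measured, form a named list that was picked by the measured difference of Ctla2a, one of the largest between the sorted populations. All 9 were found, each with 1 probe set, the group of array probes that gives 1 value per gene. The tissue was dissociated, and cells without CD45, a leukocyte marker, and Ter119, a marker of red cell precursors, were sorted for CD73, an ectoenzyme of stromal and endothelial cells. By CD105, the TGF-beta co-receptor endoglin, they fell into CD73+CD105- cells (3 samples) and CD73+CD105+ cells (3 samples), which went directly into lysis buffer, with 1 array per sample. The labels call the samples biological replicates but give no strain, age, sex or treatment, nor whether separate animals were used. A p-value here therefore reflects only the spread among these samples, and precision is limited by having 3 arrays per group. The study is about stromal repair in stem cell transplantation, and the sort compares the transcripts of its CD105- and CD105+ fractions.

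Cathepsins are proteases of lysosomes, the acidic compartments in which cells break down proteins, and some are also secreted and cut extracellular matrix. Cathepsins B, H, K, L and S are cysteine proteases made as inactive proforms, in which a propeptide covers the active site until it is cut away, whereas cathepsin D uses aspartic acid and is not a target of cystatins. The Ctla2 genes of rodents encode small proteins that resemble the propeptide of cathepsin L without the protease itself. They were first found in activated T cells and mast cells, and Ctla2a protein is known to inhibit cathepsin L-like enzymes. Cystatin C, secreted by most cells, blocks cysteine cathepsins outside the cell. In bone, cathepsin K is best known as the collagen-cutting enzyme of osteoclasts, and cathepsin S as a protease of antigen-presenting cells.

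All values are log2 expression values (RMA, a method that corrects background, equalises the arrays and summarises probes), and each difference is CD73+CD105+ minus CD73+CD105-. The array medians lay between 6.27 and 6.35. Eng, which encodes CD105, differed by 1.76 (SE 0.15, limma adjusted p = 0.00322). In CD73+CD105- and CD73+CD105+ cells the gene of CD73, Nt5e, was at 10.63 and 10.37, and the gene of CD45, Ptprc, at 4.71 and 4.70. Genes of cartilage cells were strongly present in both populations, with a mean over 10 such genes of 11.91 and 11.65. To judge dim values, 1194 olfactory and vomeronasal receptor genes were used, which marrow should hardly transcribe, and the 95th percentile of their means, called the receptor level here, was 6.01. Probe sets differ in brightness, so this level is a rough guide. The replicate 1 arrays stand apart. Their deviations from their group means had a correlation across genes of -0.883, against -0.374 to 0.453 for other pairs of arrays across the populations. Over all genes the median size of the difference was 0.188 in replicate 1 and 0.113 in replicates 2 and 3, and the replicate 1 difference was the larger in 64.7% of genes. The first is a difference of single arrays and the second of means of 2 arrays. Noise alone therefore makes the first larger in size, and how much of the gap this accounts for was not tested. Each difference is therefore also given for replicate 1 and for replicates 2 and 3. In bulk samples, a smaller share of a cell type and less RNA per cell cannot be told apart.

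Ctla2a was far higher in CD73+CD105+ cells. It stood at 3.94, 4.83 and 4.41 on the CD73+CD105- arrays of replicates 1, 2 and 3, and at 9.07, 8.15 and 7.98 on the CD73+CD105+ arrays. All 3 CD73+CD105+ values lay more than 3 log2 units above every CD73+CD105- value, and the groups did not overlap. The group means were 4.39 ± 0.44 and 8.40 ± 0.58 (SD, n = 3 each), a difference of 4.005 (SE 0.32), which is 16.1-fold. Since this difference chose the list, it is given as a description with no test. It ranked 5 from the highest of all genes, with Adgrl4 (4.07) above it and Entpd1 (3.76) the next named gene after it. Replicate 1 held the lowest and the highest of the 6 values, with a difference of 5.12 against 3.45 in replicates 2 and 3, or 34.8-fold against 10.9-fold. In CD73+CD105- cells the mean was under the receptor level, where RMA compresses differences, so the fold may be too small.

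Ctla2b, the neighbouring inhibitor gene, showed a much smaller difference. Its values were 5.39, 5.68 and 5.72 on the CD73+CD105- arrays and 6.64, 6.14 and 6.44 on the CD73+CD105+ arrays. The groups did not overlap, and the range within CD73+CD105+ cells was wider than the gap between the groups. The means were 5.60 ± 0.18 and 6.41 ± 0.26 (SD, n = 3 each), a difference of 0.81 (SE 0.15), which is 1.75-fold. In CD73+CD105- cells Ctla2b was dimmer than the receptor level, so this fold, too, may be too small. The difference was 1.25 in replicate 1 and 0.59 in replicates 2 and 3. The Ctla2 genes are close copies of each other, so probes for Ctla2b may also bind Ctla2a transcript. Whether that contributes to the Ctla2b value was not tested.

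**Figure D1:**
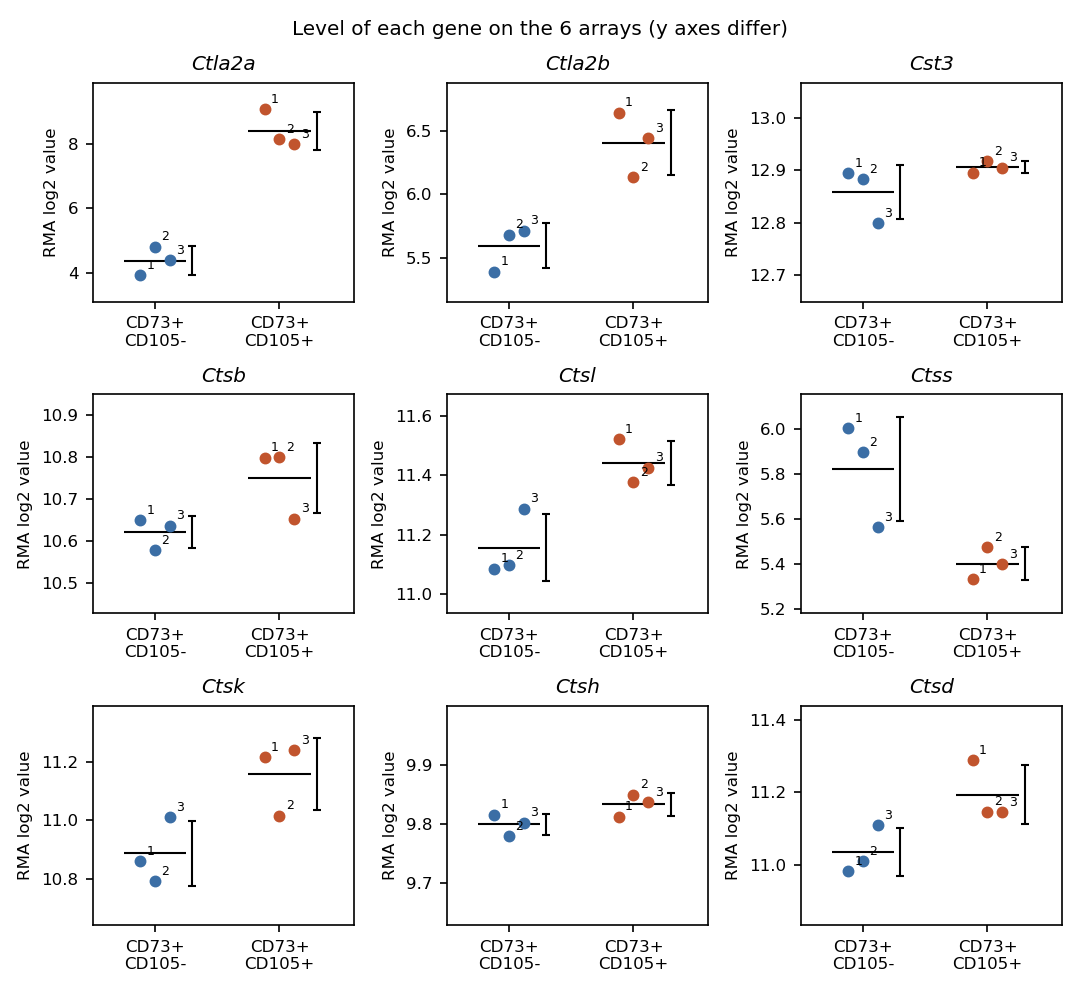
RMA log2 value (y axis, a different range in each panel) of the 9 genes on the 6 arrays; points are arrays with the replicate number beside them, lines are group means and bars the SD (n = 3). Ctla2a lies between 3.94 and 4.83 in CD73+CD105- and between 7.98 and 9.07 in CD73+CD105+ cells, whereas the 6 values of Cst3 span 0.119 and those of Ctsh 0.07.

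On mouse chromosome 13 both Ctla2 genes lie in a cluster of cathepsin genes best known from placenta. In the RefSeq annotation (GRCm38.p6) the order of protein-coding genes is Dapk1, BC051665, Ctsll3, 4930486L24Rik, Ctla2b, Tpbpb, Ctla2a, Tpbpa, Ctsj, Ctsq and Ctsr. All 11 were measured. The 9 genes other than Ctla2a and Ctla2b differed by -0.10 to 0.15 between the populations. Tpbpb, which lies between the Ctla2 genes and is a marker of placental spongiotrophoblast, stood at 2.98 ± 0.08 and 2.94 ± 0.09 (SD, n = 3 each). Tpbpa, on the other side of Ctla2a, stood at 3.43 and 3.39, and the placental cathepsin gene Ctsj at 4.48 and 4.41. Among these neighbours Dapk1, a kinase gene, alone lay above the receptor level (8.67 and 8.82). Ctsl itself lies elsewhere on chromosome 13, between Prxl2c and Cdk20, and Ctsk and Ctss are neighbours on chromosome 3.

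**Figure D2:**
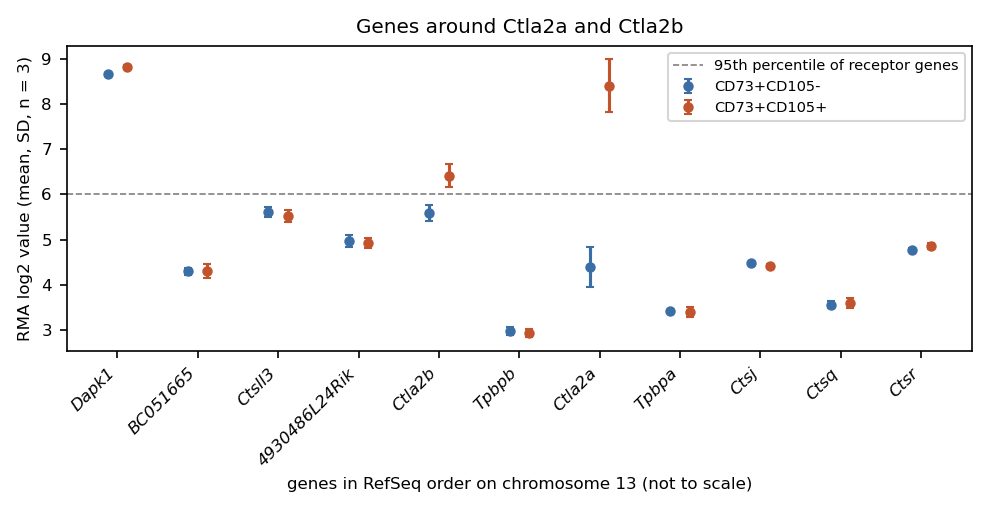
Mean RMA log2 value with SD (y axis, n = 3) of 11 neighbouring genes in their order on chromosome 13 (x axis, not to scale); blue is CD73+CD105-, orange CD73+CD105+ and the dashed line the receptor level of 6.01. Only at Ctla2a and Ctla2b are the populations far apart, and the other 9 genes differ by -0.10 to 0.15.

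The upstream sequences of both Ctla2 genes are shown as a description. Whether they bear on the unequal differences of the 2 genes was not tested. A promoter window, 250 bases before and 50 after an annotated start, was found for 7 of the 9 genes in RefSeq (GRCm38.p6), not for Ctsb and Ctsh. Aligned over 278 bases, the windows of Ctla2a (the first of its 2 listed starts) and Ctla2b were the same at 255 positions (91.7%), with 23 substitutions and 8 bases in gaps. The words CACGTG (the core of the element bound by TFEB, a regulator of lysosomal genes), its longer form TCACGTG, the ETS factor word CAGGAAG and the TATA box word TATAAA were searched on both strands. Every TCACGTG match also holds CACGTG. The 250 bases before the start follow, on the gene's own strand, with every match in capitals, for Ctla2a (chr13:60936626-60936875, minus strand) and Ctla2b (chr13:60897448-60897697, minus strand).
Ctla2a: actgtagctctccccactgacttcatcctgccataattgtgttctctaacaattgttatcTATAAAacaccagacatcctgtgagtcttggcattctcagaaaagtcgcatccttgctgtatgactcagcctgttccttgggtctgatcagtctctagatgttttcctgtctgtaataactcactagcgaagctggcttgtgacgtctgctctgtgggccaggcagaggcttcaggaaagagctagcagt
Ctla2b: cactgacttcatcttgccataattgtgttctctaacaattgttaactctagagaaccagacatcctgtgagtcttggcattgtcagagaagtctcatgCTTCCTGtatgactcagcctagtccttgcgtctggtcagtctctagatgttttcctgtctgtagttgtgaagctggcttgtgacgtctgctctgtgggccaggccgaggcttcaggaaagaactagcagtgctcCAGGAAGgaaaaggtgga
TATAAA stood at -190, counted back from the start, in Ctla2a and was not found in the window of Ctla2b. The aligned stretch shows the difference, with TATAAA in capitals.
Ctla2a: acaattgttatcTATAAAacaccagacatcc
Ctla2b: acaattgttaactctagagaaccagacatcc
Of the 6 bases of the word, 4 were the same in Ctla2b. Over all 32851 promoter windows 13.6% held TATAAA on either strand, and among the 9 genes Ctss also held it, at -233 on the opposite strand. CAGGAAG was found in both genes, at 5 (after the start) in Ctla2a and at -152 (opposite strand) and -18 in Ctla2b, and 13.3% of all windows held it. Counted from the second listed start of Ctla2a, CAGGAAG lay at -55, before the start, and TATAAA at -249. These are matches of letters, not binding sites.

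Cst3 was at nearly the same level in both populations. Its values were 12.89, 12.88 and 12.80 on the CD73+CD105- arrays and 12.90, 12.92 and 12.91 on the CD73+CD105+ arrays. The groups did not overlap, but the highest CD73+CD105- and the lowest CD73+CD105+ value, both of replicate 1, were 0.001 apart, and the means of 12.86 ± 0.05 and 12.91 ± 0.01 (SD, n = 3 each) differed by 0.05 (SE 0.06). Of 15 other cystatin family genes measured 0 passed the threshold of an adjusted p under 0.05 in limma. Of the 15, 6 had an unadjusted p under 0.05, a share above the 17.7% of all genes. Their median difference was 0.04, against -0.02 over all genes, and 11 of the 15 lay below the receptor level in both populations. The kininogen genes, whose plasma proteins carry cystatin domains and release bradykinin, had the widest differences of that list. Kng1 stood at 6.46 ± 0.50 and 7.87 ± 0.40 (SD, n = 3 each) with a difference of 1.41 (SE 0.28, adjusted p = 0.058). Kng2 stood at 6.17 and 7.06 with a difference of 0.89 (adjusted p = 0.0907). Kng1 and Kng2 are near-identical copies whose probes may not tell them apart.

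The cysteine cathepsin genes Ctsl and Ctsk had somewhat higher means in CD73+CD105+ cells and did not pass the threshold in the fit of all arrays. Ctsl, a lysosomal endopeptidase and the enzyme whose propeptide the Ctla2 proteins resemble, stood at 11.09, 11.10 and 11.29 on the CD73+CD105- arrays and at 11.52, 11.38 and 11.43 on the CD73+CD105+ arrays. The groups did not overlap. The difference was 0.28 (SE 0.08), or 1.22-fold, with 0.44 in replicate 1 and 0.21 in replicates 2 and 3. Ctsk, the collagen-cutting cathepsin, stood at 10.86, 10.79 and 11.01 on the CD73+CD105- arrays and at 11.21, 11.02 and 11.24 on the CD73+CD105+ arrays. CD73+CD105- replicate 3 and CD73+CD105+ replicate 2 nearly met, and the difference was 0.27 (SE 0.09), with 0.35 in replicate 1 and 0.23 in replicates 2 and 3.

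Ctsb and Ctsh differed less. Ctsb, which cuts within proteins and also trims their carboxyl ends, stood at 10.65, 10.58 and 10.64 on the CD73+CD105- arrays and at 10.80, 10.80 and 10.65 on the CD73+CD105+ arrays. The groups nearly touched without overlap, CD73+CD105+ replicate 3 being level with the highest CD73+CD105- array, and the difference was 0.13 (SE 0.07). Ctsh, mainly an aminopeptidase, stood at 9.82, 9.78 and 9.80 on the CD73+CD105- arrays and at 9.81, 9.85 and 9.84 on the CD73+CD105+ arrays. It was the 1 gene of the 9 whose groups overlapped, and its difference of 0.03 (SE 0.06) was -0.003 in replicate 1.

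Ctss was the 1 gene of the 9 with a lower mean in CD73+CD105+ cells. It stood at 6.005, 5.90 and 5.56 on the CD73+CD105- arrays and at 5.33, 5.48 and 5.40 on the CD73+CD105+ arrays. CD73+CD105- replicate 3 lay closer to the CD73+CD105+ arrays than to its own group. The difference was -0.42 (SE 0.12), with -0.67 in replicate 1 and -0.29 in replicates 2 and 3, and both means (5.82 and 5.40) lay below the receptor level. Among 14 macrophage and monocyte genes, a cell class known for Ctss, 9 lay below that percentile in both populations, the defining receptor gene Csf1r among them (5.33 and 5.33). The sum of their linear values was 695 to 769 on the CD73+CD105- and 741 to 807 on the CD73+CD105+ arrays. Of these, Aif1, a calcium-binding protein of macrophages, stood below the receptor level in both populations (5.03 and 5.38) and rose by 0.35 (adjusted p = 0.0401; 0.16 with a batch term for replicate 1), a call that was lost when any 1 array was left out. Lyz2, lysozyme, was 0.38 higher without passing (adjusted p = 0.0731). The part of these cells in the Ctss difference was not tested.

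The aspartic cathepsin gene Ctsd stood at 10.98, 11.01 and 11.11 on the CD73+CD105- arrays and at 11.29, 11.15 and 11.15 on the CD73+CD105+ arrays. The groups did not overlap, though CD73+CD105- replicate 3 lay close to CD73+CD105+ replicates 2 and 3. The difference was 0.16 (SE 0.08), with 0.31 in replicate 1 and 0.09 in replicates 2 and 3. The Ctsd promoter is shown because it held CACGTG in 2 places, at -245 and -98, each within a TCACGTG match (chr7:142387828-142388077, GRCm38.p6, minus strand; the words searched are in capitals).
Ctsd: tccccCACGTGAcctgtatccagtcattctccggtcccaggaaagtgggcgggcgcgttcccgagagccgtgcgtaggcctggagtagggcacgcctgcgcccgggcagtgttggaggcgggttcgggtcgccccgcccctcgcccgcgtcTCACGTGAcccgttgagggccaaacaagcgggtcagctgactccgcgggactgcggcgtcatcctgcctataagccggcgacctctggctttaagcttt
Ctsl held CACGTG once, at -236, and the windows of Ctsk, Ctss and Cst3 did not hold it. Of all windows 7.15% held CACGTG and 3.77% TCACGTG. Counted per gene, in any of its windows, the shares were 8.09% and 4.29%. Among other lysosomal genes CACGTG was found in 5 of 21 hydrolase and cofactor genes and in 5 of 13 membrane and proton pump genes with a window.

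**Figure D3:**
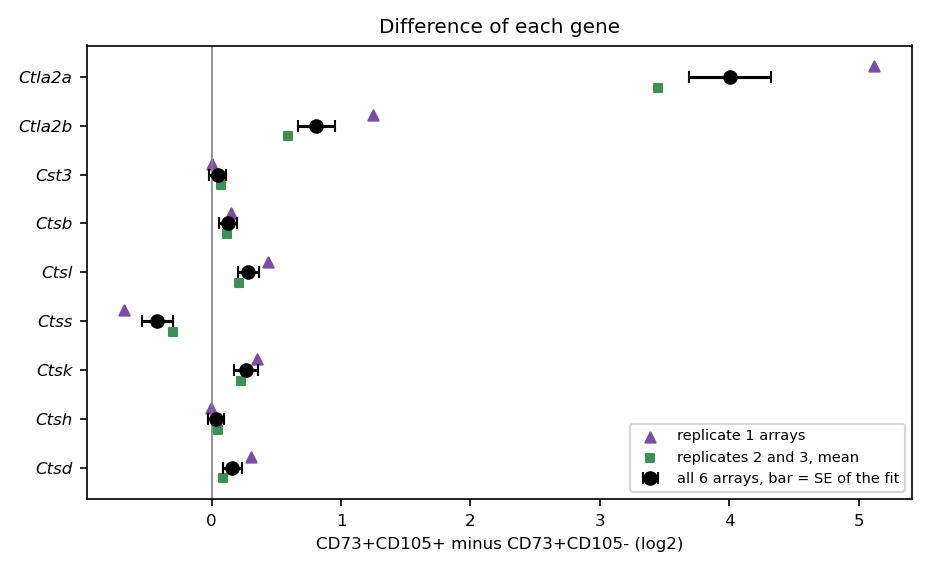
Difference of each of the 9 genes, on the log2 scale with positive values higher in CD73+CD105+ cells (x axis); black points and bars are the estimate and its standard error over all 6 arrays, triangles the replicate 1 arrays and squares replicates 2 and 3. Ctla2a at 4.005 stands far from the cathepsins, which lie between -0.42 and 0.28.

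Of the 9 genes 2 passed the threshold in limma, Ctla2a and Ctla2b, both higher in CD73+CD105+ cells, where 1.82% of all genes passed, 1.35% higher and 0.466% lower. The groups did not overlap in 8 of the 9, against 23.7% of all genes. As this contrast chose the list, through the difference of Ctla2a, nothing is read from these shares or from the call of Ctla2a. With a batch term for replicate 1 the fit called 0.507% of all genes and Ctla2a alone of the 9. Ctla2b kept its difference of 0.81 with a wider standard error (0.161 against 0.146). As each population holds 1 array of replicate 1, this term cannot change any difference. Nor can it take up a larger difference in replicate 1, so calls lost with it do not show an effect of that replicate. The call of Ctla2b was also lost in 5 of the 6 fits that left out 1 array, all but that without CD73+CD105+ replicate 2. Of the 9 differences 7 were larger in size in replicate 1 than in replicates 2 and 3, against 64.7% of all genes. A difference of single arrays is noisier than that of means of 2 arrays. The 6 cathepsin differences had a median of 0.14, against -0.02 over all genes, and a median size regardless of sign of 0.214, against 0.105.

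The remaining cathepsins gave no call. Of 10 other cathepsins and related lysosomal proteases of many tissues 0 passed in limma, 1 had an unadjusted p under 0.05, and the median difference was 0.03. Ctsc, the dipeptidyl peptidase that activates granule proteases of leukocytes, stood at 5.43 ± 0.32 and 6.004 ± 0.40 (SD, n = 3 each) with overlapping groups (0.58, adjusted p = 0.252), and its difference was 1.32 in replicate 1 and 0.21 in replicates 2 and 3. Ctse, an aspartic cathepsin, stood at 5.78 and 5.65. Of 9 placental cathepsins and propeptide relatives measured 0 passed, 0 had an unadjusted p under 0.05, and all 9 lay below the receptor level in both populations. Ctsll3 (-0.10) and Ctsr (0.09) had the widest differences of these.

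In the wider lysosome 1 gene passed. Of 23 hydrolase and cofactor genes it was Lipa, the lysosomal acid lipase that frees cholesterol and fatty acids, which rose from 7.77 ± 0.15 to 8.48 ± 0.08 (SD, n = 3 each), by 0.70 (SE 0.09, adjusted p = 0.0184; 0.0622 with the batch term), a call kept only without CD73+CD105- replicate 1 or CD73+CD105+ replicate 2 when 1 array was left out. Gaa, the acid glucosidase that degrades glycogen, stood at 9.05 and 8.71 (adjusted p = 0.0994). Over the list the median difference was 0.05. Of 15 membrane and proton pump genes 0 passed in limma and 2 had an unadjusted p under 0.05, a share below the 17.7% of all genes (median difference 0.01). Atp6v1a, a pump subunit, differed by -0.42 (adjusted p = 0.0516), and Ostm1, a partner of a chloride transporter of osteoclast lysosomes, by 0.88 (adjusted p = 0.143), of which 1.80 in replicate 1 and 0.41 in replicates 2 and 3.

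Of 9 genes for lysosomal sorting and the TFEB family 0 passed in limma and 3 had an unadjusted p under 0.05, against 17.7% of all genes (median difference -0.08). Sort1, the sorting receptor sortilin, stood at 9.02 and 8.31, with a difference of -0.71 (adjusted p = 0.0854). Gnptab, which makes the mannose 6-phosphate tag of lysosomal enzymes, differed by -0.19 (adjusted p = 0.226). Tfeb itself was at 6.83 and 6.74.

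**Figure D4:**
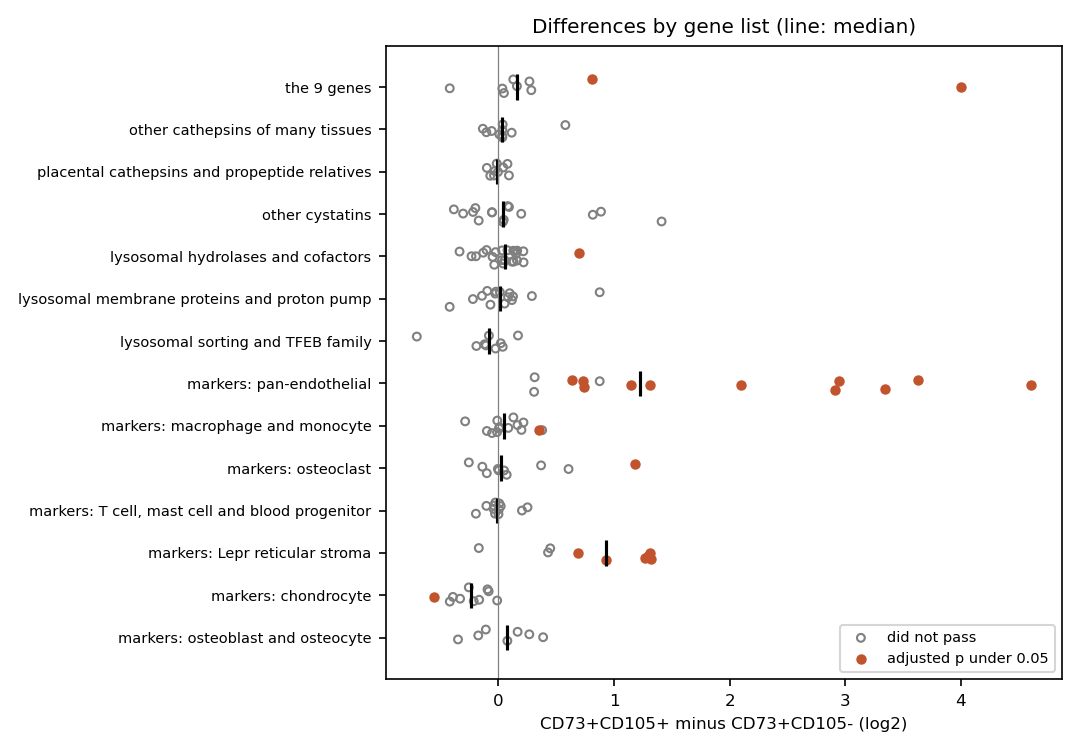
Differences of single genes (points, CD73+CD105+ minus CD73+CD105-, log2, x axis) in the 9 genes and 13 gene lists (rows); filled points had a limma adjusted p under 0.05, open points did not, and lines are medians. Filled points are common only in the pan-endothelial (11 of 14) and Lepr reticular stroma (6 of 9) lists, while the other cathepsin, placental and cystatin lists hold 0. Over all genes 1.82% passed.

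Markers of vessel lining cells were also higher in CD73+CD105+ cells, by widely unequal amounts. Of 14 pan-endothelial genes all 14 had a difference above 0, with a range of 0.308 to 4.609. The median was 1.23, against -0.02 over all genes. In limma 11 passed the threshold as higher, against 1.35% of all genes. With the batch term 8 passed, against 0.507% of all genes in either direction. Their linear values summed to 1220 to 1410 on the CD73+CD105- arrays and 4130 to 5110 on the CD73+CD105+ arrays, with 0 of 14 below the receptor level in both populations. Emcn, an endothelial sialomucin, Pecam1 and Cdh5, adhesion molecules of endothelial junctions, and Ptprb, a vascular phosphatase, rose by 4.61, 3.63, 3.34 and 2.94 (adjusted p at most 0.00047). In the batch term fit their adjusted p was at most 0.00177. The 3 that did not pass in limma were Cldn5 (0.31, adjusted p = 0.144), Erg (0.31, adjusted p = 0.136) and Sox18 (0.88, adjusted p = 0.0514). The part of these cells in the Ctla2a difference was not tested.

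Among 9 markers of Lepr reticular stroma 8 had a difference above 0, with a median of 0.93 and summed linear values of 3850 to 4110 against 6370 to 7260. With the batch term 2 of the 9 passed, against 0.507% of all genes in either direction. Without it 6 passed the threshold in limma as higher, against 1.35% of all genes. They included Vcam1, an adhesion molecule (1.30, adjusted p = 0.00544), Lepr, the leptin receptor (0.93, adjusted p = 0.00869), Ebf3, a transcription factor of these cells (0.69, adjusted p = 0.0129), and Kitl, stem cell factor (1.27, adjusted p = 0.0201). With the batch term the adjusted p of Ebf3 was 0.0541 and that of Kitl 0.052. When 1 array was left out, the call of Ebf3 was lost in 2 of 6 fits, those without either replicate 1 array, and that of Kitl in 4, those without either array of replicate 1 or 3. T cells and mast cells are those in which Ctla2 genes were first described. Of 12 T cell, mast cell and blood progenitor genes 0 passed in limma and 2 had an unadjusted p under 0.05. Of the 12, 10 lay below the receptor level in both populations. The summed values of the list were 519 to 568 and 532 to 573, and Kit (0.25) and Gata2 (0.20) had the widest differences.

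Beside Ctsk, 6 of 10 osteoclast genes had a difference above 0. Of the 10, 3 had an unadjusted p under 0.05 in limma, against 17.7% of all genes, and 1 passed. This was the gelatinase gene Mmp9, higher by 1.18 (adjusted p = 0.0226, and 0.0642 with the batch term). Its call was kept only without CD73+CD105- replicate 3 or CD73+CD105+ replicate 2 when 1 array was left out. The proton pump subunit gene Atp6v0d2 differed by 0.61 (adjusted p = 0.321), by 1.43 in replicate 1 and 0.19 in replicates 2 and 3. The osteoclast genes summed to 1150 to 1240 and 1320 to 1470. Calcr, the calcitonin receptor gene that marks osteoclasts, was below the receptor level (5.08 and 5.07). Acp5, of the same list, stood above that level at 7.67 and 8.04. Its groups did not overlap, and its difference of 0.37 did not pass in limma (adjusted p = 0.0578). Of 10 chondrocyte genes 0 had a difference above 0 (median -0.235, range -0.556 to -0.011). Of the 10, 5 had an unadjusted p under 0.05 in limma, against 17.7% of all genes, and 1 passed. This was the transcription factor gene Sox6, lower by 0.56 (adjusted p = 0.0304, and 0.10 with the batch term). Its call was kept only without CD73+CD105+ replicate 2 when 1 array was left out. Matn3, a cartilage matrix protein, differed by -0.42 (adjusted p = 0.277). Their sum was 44100 to 50800 and 37000 to 45500. Of 7 osteoblast and osteocyte genes 0 passed in limma and 2 had an unadjusted p under 0.05, with Ifitm5 at 0.39 and Sp7 at -0.35, and sums of 11700 to 12200 and 11900 to 13700. The part of these cells in the cathepsin values was not tested.

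The genes whose pattern over the 6 arrays was most like that of Ctla2a were found by the root mean square distance of the log2 profiles, each centred on its own mean, leaving out gene models and clones. The nearest was Adgrl4, an adhesion receptor of endothelium (distance 0.30), followed by Pecam1 (0.381), Cdh5 (0.416), Fabp4, a fatty acid binding protein (0.46), and Fmo2, a monooxygenase (0.49). Adgrl4 stood at 4.51 ± 0.15 and 8.58 ± 0.29 (SD, n = 3 each), a difference of 4.07 (SE 0.15), with 4.51 in replicate 1 and 3.85 in replicates 2 and 3. Fabp4 differed by 4.12, with 4.18 in replicate 1 and 4.10 in replicates 2 and 3, a smaller gap between the replicates than in Ctla2a (5.12 and 3.45). The distance keeps the size of the change, so it favours genes whose difference is near that of Ctla2a. All of the named genes were also among the largest rises. The distance is a description of these 6 arrays, which share the sort.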

How the data were processed

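Total RNA of 6 sorted mouse marrow samples was labelled with biotin and measured on 1-colour arrays, per the labels. The authors deposited RMA values on the log2 scale, 1 per probe set and array, per the submitters' processing notes. The RMA version and the genome build were not given in the sources used here. Groups and replicate numbers came from the sample titles. No scanner files were used here, so there are no detection calls. The platform annotation gave 1 gene symbol to 21789 of 35556 probe sets, several to 1621 and none here to 12146, and 21698 of these were matched by Entrez ID to RefSeq (GRCm38.p6) with 0 symbols changed. Per gene the probe set with the highest mean over the 6 arrays was used, giving 19938 genes with no filter. Differences were fitted with limma 3.58.1 in R 4.3.3 (lmFit, eBayes, two-sided, no block) over all genes, with Benjamini-Hochberg adjustment over the 19938 and a threshold of 0.05; the fit was tested on simulated data. Standard errors are the moderated ones. The mean of both replicate 1 arrays nearly equalled that of the remaining 4 arrays gene by gene (SD of the gap 0.0423, against 0.122 to 0.168 for the other cross-population pairs), which no label describes. A batch term for replicate 1 therefore had little shift to fit. If the values had been adjusted for replicate 1 before deposit, p-values of the fit without this term would be too small. Whether they were was not tested. The 9 genes and all lists were chosen with earlier results of these data known, so no p is given for the 9 genes. Named from each list were up to 4 genes past the threshold by adjusted p, or the 2 with the widest difference where fewer than 2 passed, and the 5 genes nearest to Ctla2a. Some further list genes, such as Csf1r, Tfeb, Calcr, Acp5 and Cldn5, are named outside this rule. The neighbours on chromosome 13 were added after the values were seen. Promoter windows came from RefSeq. Protein sequences were not used here.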

Additional observations from a re-analysis of the deposited data

How the results depend on the processing

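The direction of every one of the 9 differences was the same in each of the 16 alternatives that could give a value. For Ctss there were 15, as the filter on dim genes removes it. Several alternatives cannot change the difference of a gene with 1 probe set and bear only on the calls. They are the replicate number as a block, the batch term, the settings on multiple probe sets, the filter on dim genes and a setting of the variance estimate. In replicate 1 alone, a value with no test, Ctsh was at -0.003. The difference of Ctla2a lay between 3.45 and 4.42 and that of Ctla2b between 0.59 and 0.98. Against 363 genes past the threshold, 215 passed with the replicate number as a block (replicate block), 101 with a batch term for replicate 1, 29 in replicates 2 and 3 alone and 1331 with array weights, and 86 to 293 when 1 array was left out. Of the 9 genes, 2 in the fit of all arrays, only 1 (Ctla2a) passed after repeated quantile normalization, after centring on medians, with every probe set tested, with the replicate block, with the batch term and in replicates 2 and 3 alone. With array weights 4 passed (Ctla2a, Ctla2b, Ctsl and Ctss), and 1 to 2 when 1 array was left out: Ctla2b passed only without CD73+CD105+ replicate 2, and Ctss without CD73+CD105- replicate 3. The cause was not tested. As the difference of Ctla2a chose the list, nothing is read from its calls in these settings. Same-numbered arrays did not deviate together (correlations across genes of -0.883, 0.00659 and 0.104 for replicates 1, 2 and 3), so the numbers were not taken as pairs. Dim probe sets, with Ctla2a and Ctla2b in CD73+CD105- cells and Ctss in both populations below the receptor level, limit what these arrays show.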
